A study of Mus musculus with 3 samples.

Results

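Replication-dependent histone genes were followed in single-nucleus ATAC-seq of whole mouse embryos. The set held every protein-coding gene of the mm10 GENCODE vM21 annotation whose symbol starts with Hist1h, Hist2h, Hist3h or Hist4h, which gave 67 of 21911 protein-coding genes. No accessibility value was used to choose them. They comprised 6 H1, 18 H2A, 18 H2B, 12 H3 and 13 H4 genes. All nuclei came from untreated wild-type C57BL/6JRj embryos, prepared from frozen sections of embryos of stage E12.5, E13.5 or E15.5, and were sorted on the DNA dye 7-AAD. There was 1 library for each stage, so library and stage could not be told apart and no stage was tested. The libraries held 153, 970 and 756 nuclei and 9402554, 87687839 and 53120243 unique fragments, in the order of the stages. A nucleus was assigned to 1 of the clusters that the authors deposited. These clusters were made from the accessibility of the same nuclei.

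Core histones H2A, H2B, H3 and H4 form the protein spool on which DNA is wound, and H1 binds the DNA between spools. A cell that copies its genome needs a matching supply of new histones, and replication-dependent histone genes are known to be transcribed chiefly in S phase. They are short, lack introns in most cases and give mRNAs that end in a stem-loop rather than a poly(A) tail. The stem-loop is bound by the protein Slbp, and transcription is driven by Npat in nuclear bodies that form at the histone loci.

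Of the 67 genes, 54 lay on chromosome 13 between positions 21715763 and 23934851. Smaller groups lay on chromosome 3 (10 genes, 96219865 to 96270132) and on chromosome 11 (Hist3h2a and Hist3h2ba), and Hist4h4 stood alone on chromosome 6. The chromosome 13 genes fell into 4 blocks of 18, 5, 29 and 2 genes. The interval between the first and the last of them also held 48 other protein-coding genes, of which 35 were Vmn1r vomeronasal receptor genes. In 12 places an H2A and an H2B gene lay head to head with 279 to 335 bp between their start codons, so 24 genes shared a promoter region with a partner. The promoter windows of some other neighbours overlapped too, among them those of Hist1h3c and Hist1h2bb. The counts over the 67 promoters summed to 69488 but came from 54758 fragments. Thus 21.2% of the counts repeated a fragment already counted for another gene, and partners and such neighbours are not independent measurements.

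The gene ends carried the stem-loop sequence. A perfect hairpin with a stem of 6 bp and a loop of 4 bases stood within 100 bp after the stop codon in 62 of the 67 genes, a share of 92.5%, against 4.51% of all 21911 protein-coding genes. The sites are shown because they are what the genes share at their ends. The stems are in capitals, and the 3 commonest forms were the following, found in 38, 9 and 8 genes.

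Stem-loop in 38 genes: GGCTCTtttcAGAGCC
Stem-loop in 9 genes: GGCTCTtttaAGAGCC
Stem-loop in 8 genes: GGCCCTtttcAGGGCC

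Sites with one of these stems and a loop of the form TNTN, where N is any base, were found in 60 of the 67 genes. Outside the set they were found in 2 genes, H2afx and H2bfm. They began 22 to 59 bases after the stop codon, with a median of 32. The stop codon was that of the farthest coding end annotated for a gene, so a site after an earlier stop would be missed. The 7 genes without one within 100 bp of that stop codon were Hist2h2be, Hist1h4b, Hist1h4j, Hist1h2an, Hist1h2bp, Hist1h2bq and Hist1h2br. Of these, Hist1h4b and Hist1h4j carried the variant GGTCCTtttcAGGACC.

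Promoter sequences differed between the histone classes. They were taken from RefSeq on GRCm38.p6, from 250 bases before to 50 bases after the annotated start. This was done for the 61 genes with a single match by Ensembl identifier or, failing that, by name. Sets of letters known from histone promoters were searched on both strands. The CCAAT box (CCAAT) stood in 52 of the 61 promoters, or 85.2%, against 37.9% of all 27025 promoters. It was present in all 6 H1, 17 H2A, 16 H2B and 10 H3 promoters matched but in 3 of 12 H4 promoters. The TATA box (TATAAA) was in 57.4% of the histone promoters and 14.2% of all promoters. An octamer (ATTTGCAT) was found in 7 H2A and 6 H2B promoters, 21.3% of the histone promoters and 1.75% of all, with head-to-head partners sharing the stretch that holds it. The core of the H4 element (GGTCCG) stood in 11 of 12 H4 promoters, or 91.7%, and in 8.39% of all promoters. An H1 box (AAACACA) stood in 5 of 6 H1 promoters, or 83.3%, and in 7.14% of all. A match says only that these letters are in the window.

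The following upstream sequences belong to the gene of each class with the smallest p in the comparison of clusters 9 and 5 with clusters 0 and 6 described below, to an H4 gene with the H4 element, and to Hist3h2ba, the gene that went the other way. They are written 5′ to 3′ on the strand of the gene, without bases covered by any annotated exon, and the searched letters on either strand are in capitals.

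Hist1h1b (chr13:21780626-21780875, minus strand): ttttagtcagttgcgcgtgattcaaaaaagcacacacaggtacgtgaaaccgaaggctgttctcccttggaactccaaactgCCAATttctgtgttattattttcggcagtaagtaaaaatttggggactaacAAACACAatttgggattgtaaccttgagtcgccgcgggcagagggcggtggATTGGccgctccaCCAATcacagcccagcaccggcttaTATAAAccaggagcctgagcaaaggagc
Hist2h2ac (chr3:96220881-96221118, minus strand): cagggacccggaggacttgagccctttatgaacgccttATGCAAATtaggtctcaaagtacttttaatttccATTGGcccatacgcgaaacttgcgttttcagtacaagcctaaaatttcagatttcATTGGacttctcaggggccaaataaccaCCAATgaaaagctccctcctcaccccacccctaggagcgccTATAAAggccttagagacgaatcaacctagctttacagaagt
Hist1h2bn (chr13:21753828-21754075, plus strand): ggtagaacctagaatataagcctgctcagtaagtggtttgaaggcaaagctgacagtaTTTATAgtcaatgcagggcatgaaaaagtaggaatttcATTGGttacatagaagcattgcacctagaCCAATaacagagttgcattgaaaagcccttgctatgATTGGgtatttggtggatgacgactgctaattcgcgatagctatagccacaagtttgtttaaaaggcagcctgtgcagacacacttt
Hist1h3b (chr13:23752095-23752266, plus strand): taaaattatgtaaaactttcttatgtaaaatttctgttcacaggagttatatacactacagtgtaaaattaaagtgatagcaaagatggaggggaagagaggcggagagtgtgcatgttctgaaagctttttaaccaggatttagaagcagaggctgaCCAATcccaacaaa
Hist1h4a (chr13:23761250-23761499, minus strand): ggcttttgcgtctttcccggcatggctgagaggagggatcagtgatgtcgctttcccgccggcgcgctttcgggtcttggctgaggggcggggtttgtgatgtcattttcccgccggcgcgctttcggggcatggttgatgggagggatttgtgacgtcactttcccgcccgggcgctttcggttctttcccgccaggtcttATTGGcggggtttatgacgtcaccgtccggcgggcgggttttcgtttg
Hist1h4f (chr13:23551669-23551918, minus strand): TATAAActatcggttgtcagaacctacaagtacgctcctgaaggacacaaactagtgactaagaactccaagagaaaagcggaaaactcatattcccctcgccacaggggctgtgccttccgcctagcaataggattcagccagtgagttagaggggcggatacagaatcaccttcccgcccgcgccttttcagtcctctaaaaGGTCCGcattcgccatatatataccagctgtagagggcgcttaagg
Hist3h2ba (chr11:58948661-58948910, plus strand): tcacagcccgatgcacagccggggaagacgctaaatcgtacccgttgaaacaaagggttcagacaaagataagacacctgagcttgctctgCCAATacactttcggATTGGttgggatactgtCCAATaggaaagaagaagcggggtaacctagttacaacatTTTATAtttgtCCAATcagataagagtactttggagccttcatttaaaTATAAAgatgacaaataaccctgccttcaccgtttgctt

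Hist1h1b, the gene of linker histone H1.5, carried CCAAT boxes on both strands, the H1 box and a TATA box. Hist2h2ac, an H2A gene of chromosome 3, carried the octamer upstream of its CCAAT boxes. Hist1h4a had a single CCAAT box on the reverse strand and neither the TATA box nor the H4 element in the stretch shown, whereas Hist1h4f had the H4 element core close to its start. Hist3h2ba carried CCAAT boxes and TATA boxes, and over the 16 H2B promoters matched the TATA box stood in 8.

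The comparison asked whether these promoters were more open in 2 clusters named as cycling, 9 and 5, than in 2 clusters of neurons, 0 and 6. The names were checked by counting the markers whose gene span held at least 1.5 times the mean level of the other clusters. Cluster 0 raised 7 of 7 neuron markers and cluster 6 raised 6 of 7, and cluster 6 also raised 4 of 7 neural progenitor markers. Cluster 9 raised 7 of 7 progenitor markers and 1 of 7 neuron markers, and cluster 5 raised 8 of 8 erythroid markers. No marker of these lists was at 0 in any of the 4 clusters. Summed erythroid marker levels were 325 to 575 fragments per 1000000 in cluster 5 and 43.2 to 78.6 in cluster 9. Summed neuron marker levels reached 377 to 402 in cluster 9, against 553 to 593 in cluster 0. The part of such other signal in the histone results was not tested. Accessibility does not measure cell division, so the clusters are called here progenitor-like (9), erythroid-like (5) and neuron-like (0 and 6). Erythroid precursors of the embryo are known to divide while they mature, whereas neurons do not divide.

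A promoter was taken as 1000 bp before to 100 bp after the annotated gene start, the same length for every gene, and its level as the unique fragments that overlap it per 1000000 fragments of the cluster in the library (CPM). In the order of the stages, cluster 0 held 11, 87 and 172 nuclei, and cluster 6 held 5, 76 and 50. Cluster 9 held 11, 50 and 20 nuclei, and cluster 5 held 10, 166 and 10. Values of a cluster are given below in the same order, E12.5 first. The sum of cluster 6 at E12.5 had fewer than 10 nuclei and stayed out of the tests, which left 11 sums. Sums of nuclei are single values per library, and the intervals below are exact 95% Poisson intervals that cover counting error only.

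Histone promoters were among the more open promoters of the embryo. Over the sums tested, the median gene of the set had 11.8 CPM at its promoter, against 2.40 for all protein-coding genes, and 55 of the 67 lay above the median of all genes. Hist1h4a had the highest mean level, 27.3 CPM, which placed it at percentile 98.3 of all promoters. The highest level in the other classes was that of Hist1h2ac for H2A, Hist1h2bc for H2B, Hist1h3e for H3 and Hist1h1a, the gene of H1.1, for H1.

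**Figure D1:**
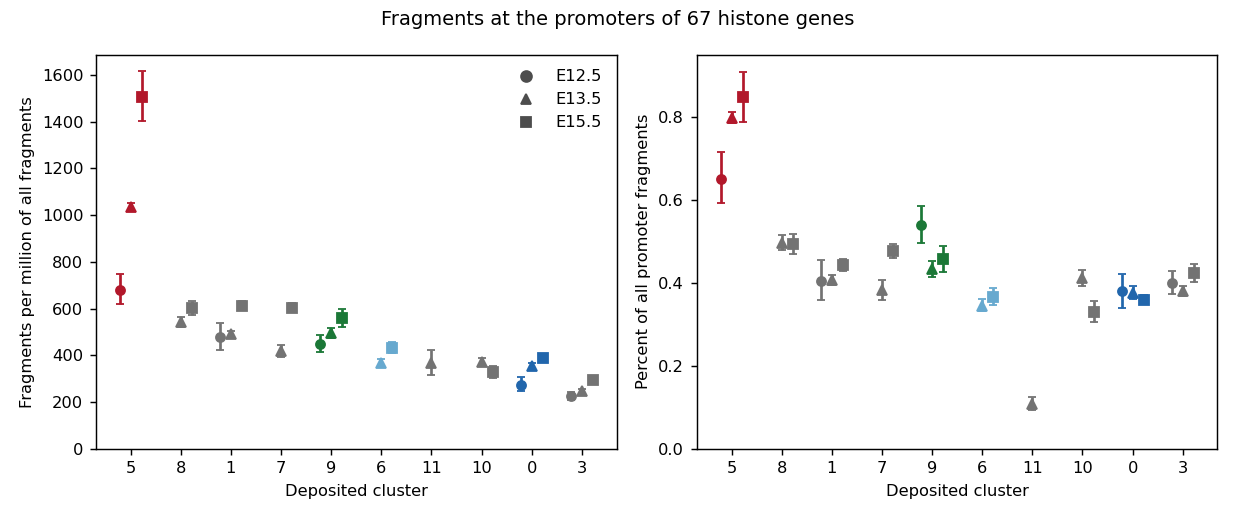
Fragments at the union of the 67 histone promoters in CPM (left) and as a percent of all promoter fragments (right), for each cluster (horizontal axis) and library (symbols, sums of 10 or more nuclei, with exact 95% Poisson or binomial intervals). In the erythroid-like cluster 5 the 3 libraries sit between 681 and 1505 CPM, above all points of the other clusters, which reach at most 612, and cluster 11 has the lowest percent, 0.108%.

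With each fragment counted once over all 67 promoters, the erythroid-like cluster 5 had the highest levels among sums of 10 or more nuclei. They were 681 CPM (interval 619 to 748) in the E12.5 library, 1036 (1018 to 1053) in the E13.5 library and 1505 (1401 to 1616) in the E15.5 library. In the progenitor-like cluster 9 they were 449 (413 to 487), 496 (474 to 519) and 560 (522 to 599). Cluster 0 had 275 (246 to 306), 353 (338 to 368) and 390 (378 to 401) CPM. Cluster 6 had 333 (282 to 391) in its 5 nuclei at E12.5, and 368 (352 to 383) and 433 (410 to 457) at the later stages. Thus every library of cluster 5 lay above every library of cluster 9, and every library of cluster 9 lay above every neuron-like sum. The means were 1074 ± 414 CPM (SD, n = 3) for cluster 5, 502 ± 55.7 (n = 3) for cluster 9, 339 ± 58.6 (n = 3) for cluster 0 and 400 ± 46.1 (n = 2) for cluster 6. Within each library, clusters 9 and 5 together had 1.86, 2.13 and 2.51 times the mean of clusters 0 and 6, a direction seen in 3 of 3 libraries. The ratio at E12.5 includes the 5 nuclei of cluster 6. An exact paired permutation test over 3 libraries cannot give a two-sided p below 0.25.

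The clusters also differed in how many of their fragments fell in promoters at all. All protein-coding promoters together took 7.25 to 10.8% of the fragments in cluster 0, 8.32 to 12.2% in cluster 9 and 10.5 to 17.8% in cluster 5. Taken as a share of the promoter fragments, histone promoters made up 0.651%, 0.798% and 0.847% in cluster 5, in the order of the stages. The shares were 0.540%, 0.434% and 0.457% in cluster 9 and 0.379%, 0.376% and 0.359% in cluster 0. Against both neuron-like clusters the ratio of these shares was 1.86, 2.21 and 2.34 for cluster 5 and 1.54, 1.20 and 1.26 for cluster 9. At E12.5 these ratios too include the 5 nuclei of cluster 6. Both ratios of shares thus lay above 1 in 3 of 3 libraries.

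Other clusters are given for the range of levels. The mesenchyme-like cluster 1 had 477 to 612 CPM and cluster 8, which mixed endothelial, white blood cell, hepatocyte and epithelial markers, had 541 and 601 in its sums of 10 or more nuclei, and 987 in its 2 nuclei at E12.5, so by CPM the progenitor-like cluster 9 was not above them. As a share of promoter fragments the mean was 0.477% (0.434 to 0.540%) in cluster 9, 0.418% (0.404 to 0.443%) in cluster 1 and 0.494% (0.492 to 0.497%) in cluster 8. Cluster 7 had 417 and 604 CPM, cluster 10 had 329 and 370, and cluster 3 had the lowest levels, 225 to 293, with a mean of 255.5 ± 34.8 (SD, n = 3) that lay below the 339 of cluster 0. By share of promoter fragments cluster 3 had a mean of 0.401%, above the 0.372% of cluster 0 and the 0.356% of cluster 6. Cluster 11, which raised the same 8 of 8 erythroid markers as cluster 5 and had 10 or more nuclei at E13.5 alone, had 366 CPM there. As a share of promoter fragments this was 0.108% (exact binomial 95% interval 0.0935 to 0.125%), against 0.798% in cluster 5 of the same library. Promoters took 33.8% of all fragments in cluster 11.

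Single promoters were then tested across the whole genome with edgeR's quasi-likelihood test, with the library as a block and Benjamini-Hochberg adjustment over all 12527 promoters that passed the filter on low counts. Changes are given as log2 differences ± SE. This SE is the size of the difference divided by the square root of the F statistic of the test. It thus restates the p-value and is not a separate measure of spread over libraries. Of the 67 histone promoters 56 were tested. In clusters 9 and 5 against clusters 0 and 6, 44 were higher and 1 was lower at an adjusted p under 0.05. Among all tested promoters 8.49% were higher and 13.6% lower. The median log2 difference was 0.85 over the tested histone promoters and −0.03 over all tested promoters. With the total of all fragments as the scale, the median of all promoters moved to 0.24, and the median of the histone promoters lay 0.89 above it, against 0.88 with TMM. Of all promoters called, 38.5% were higher with TMM, 70.5% with the total as the scale and 27.3% by DESeq2. Without the E13.5 library 11 of 54 tested histone promoters were higher, and without the E15.5 library 24 of 59. By class, 4 of 5 tested H1, 11 of 15 H2A, 14 of 15 H2B, 8 of 10 H3 and 7 of 11 H4 promoters were higher, with medians of 1.07, 0.78, 0.91, 1.04 and 0.66. DESeq2 called 3 of the 11 H4 promoters higher, and 4, 11, 12 and 7 in the other classes. The H2B gene Hist1h2be has its annotated start 35168 bp from its start codon, and the window at that start lies inside the gene Hist1h1e. With the window at its own start codon the difference of Hist1h2be was 0.97 (adjusted p = 0.0019), against 0.91 (0.000406).

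**Figure D2:**
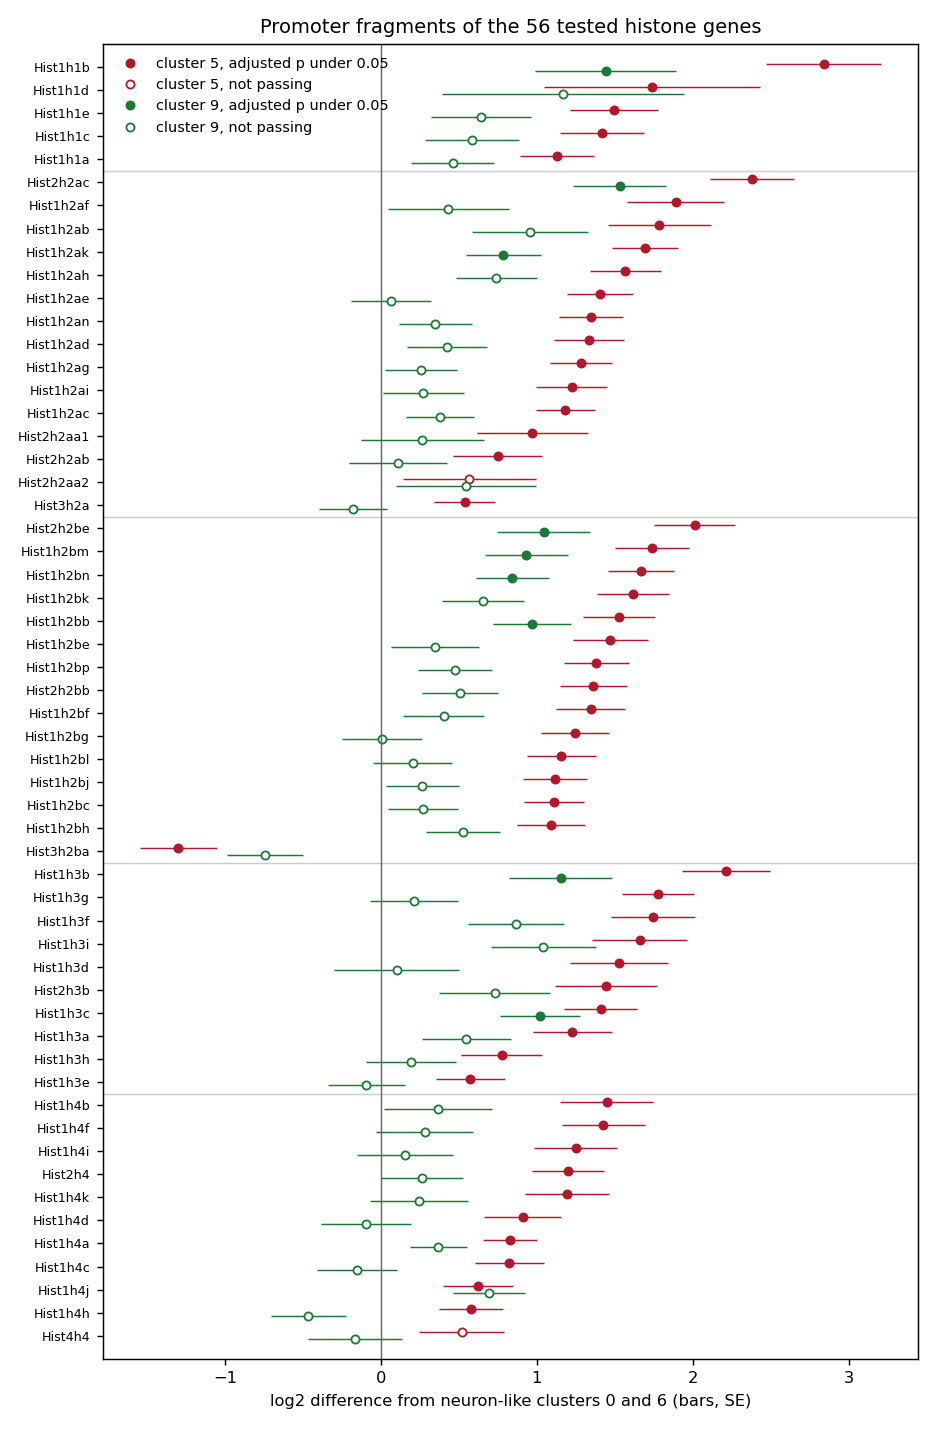
Log2 difference (horizontal axis, bars are SE) of each tested histone promoter in cluster 9 and in cluster 5 against neuron-like clusters 0 and 6, with the genes grouped by histone class (vertical axis). The point of cluster 5 lies right of that of cluster 9 for every gene but Hist3h2ba and Hist1h4j, and Hist3h2ba lies left of 0 in both.

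Of the 6 linker histone genes 4 rose, 1 did not pass the threshold and 1 was not tested. Hist1h1b had 0.823, 2.82 and 1.20 CPM at its promoter in cluster 0, and 2.01 and 1.28 in the 2 sums of cluster 6. It had 7.78, 3.82 and 5.40 in cluster 9 and 9.38, 15.3 and 29.5 in cluster 5. All sums of clusters 9 and 5 lay above all neuron-like sums, although the neuron-like levels rest on as few as 1 fragment. The log2 difference was 2.14 ± 0.35 (adjusted p = 7.4e-08). A promoter this low in the neuron-like sums can pass the filter on low counts through the clusters where it is high. Its difference and p are therefore not free of that filter. Hist1h1e, the gene of H1.4, rose by a log2 difference of 1.07 ± 0.25 (adjusted p = 0.000328), Hist1h1c, the gene of H1.2, by 1.00 ± 0.24 (0.000436) and Hist1h1a by 0.79 ± 0.21 (0.00143). Hist1h1d, the gene of H1.3, had a difference of 1.45 ± 0.63 at its promoter with an adjusted p of 0.0814. It had 0.313 to 1.01 CPM in the neuron-like sums tested and can have passed the filter in the same way. Its annotated start lies far upstream of its start codon, and over its gene body the difference was 1.45 ± 0.24 (adjusted p = 0.000486). The testis gene Hist1h1t did not pass the filter and had at most 3.13 CPM in the 4 clusters.

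Among H2A genes the smallest p was that of Hist2h2ac on chromosome 3. Its promoter had 1.65, 5.01 and 3.67 CPM in cluster 0, and 4.53 and 4.17 in cluster 6 at the later stages. It had 3.11, 11.7 and 20.2 in cluster 9 and 17.2, 25.9 and 31.5 in cluster 5. The 4 fragments of cluster 9 at E12.5 put that sum inside the range of the neuron-like sums, and the other sums of clusters 9 and 5 lay above it. The log2 difference was 1.96 ± 0.24 (adjusted p = 1.66e-13). Hist1h2ak, which shares its promoter region with the H2B gene Hist1h2bn, had 7.88 to 11.5 CPM in the neuron-like sums of 10 or more nuclei, 11.7 to 18.2 in cluster 9 and 15.6 to 72.8 in cluster 5. These did not overlap, but the nearest sums were almost equal, 11.5 CPM in cluster 0 and 11.7 in cluster 9. Both were E12.5 sums of 11 nuclei. The difference of Hist1h2ak was 1.24 ± 0.19 with an adjusted p of 4.66e-09. Hist1h2ac, the most open H2A promoter, rose by 0.78 ± 0.17 (adjusted p = 7.12e-05).

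Among the H2B genes most promoters rose and a single one fell. Hist1h2bn had 10.7, 8.92 and 9.39 CPM in cluster 0 and 8.05 and 9.31 in cluster 6, and it had 12.4, 17.1 and 19.6 in cluster 9 and 20.3, 31.9 and 63.0 in cluster 5. The groups did not overlap, and the log2 difference was 1.26 ± 0.19 (adjusted p = 2.26e-09). Hist2h2be, the partner of Hist2h2ac and known for its use in olfactory neurons, rose by 1.53 ± 0.24 (adjusted p = 8.08e-09). Hist1h2bc, the most open H2B promoter, rose by 0.69 ± 0.17 (adjusted p = 0.000783). Hist3h2ba on chromosome 11 was the 1 promoter of the set that fell. It had 15.6, 14.7 and 22.9 CPM in cluster 0 and 16.8 and 18.9 in cluster 6, and it had 11.7, 11.7 and 10.1 in cluster 9 and 3.13, 8.51 and 13.8 in cluster 5. Every sum of clusters 9 and 5 lay below every neuron-like sum, and the log2 difference was −1.02 ± 0.19 (adjusted p = 4.19e-06). Its neighbour Hist3h2a, an H2A gene, had a difference of 0.18 ± 0.17 (adjusted p = 0.511).

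Of the H3 genes Hist1h3b had the smallest p. Its promoter held 4.12, 4.54 and 3.33 CPM in cluster 0 and 4.02 and 3.21 in cluster 6. It held 8.56, 7.90 and 11.5 in cluster 9 and 14.1, 22.5 and 31.5 in cluster 5, again without overlap. The log2 difference was 1.68 ± 0.26 (adjusted p = 9.92e-09). Hist1h3c rose by 1.21 ± 0.21 (adjusted p = 1.7e-07). Hist1h3e, the most open H3 promoter, had 10.7 to 15.4 CPM in the neuron-like sums of 10 or more nuclei, 9.34 to 15.52 in cluster 9, and 21.2 and 37.4 in cluster 5 after E12.5, where it rested on 8 fragments. These ranges overlapped, and its difference was 0.24 ± 0.19 (adjusted p = 0.417).

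H4 promoters had the lowest median difference of the classes. Hist1h4a had 12.3, 23.5 and 19.6 CPM in cluster 0, 17.8 and 19.6 in cluster 6, 24.9, 29.3 and 21.6 in cluster 9 and 23.4, 43.7 and 64.9 in cluster 5. The lowest sums of clusters 9 and 5 overlapped with the highest of cluster 0, and the log2 difference was 0.60 ± 0.15 (adjusted p = 0.000672). Hist1h4f rose by 0.85 ± 0.24 (adjusted p = 0.0036). Hist1h4h had 12.3, 14.9 and 13.7 CPM in cluster 0, 15.8 and 15.4 in cluster 6, 10.1, 12.2 and 10.8 in cluster 9. In cluster 5 it had 29.6 and 37.4 CPM at the later stages and 8 fragments at E12.5, a level within the neuron-like range. Cluster 9 thus lay below these neuron-like sums and cluster 5 above them at 2 of 3 stages, and the joint difference was 0.06 ± 0.18 (adjusted p = 0.879). Hist4h4, alone on chromosome 6, had a difference of 0.17 ± 0.24 (adjusted p = 0.664).

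By position, 39 of 45 tested promoters on chromosome 13 were higher, and outside chromosome 13 the counts were 5 of 11 higher and 1 lower. Beside these stand the 8.49% higher and 13.6% lower of all promoters, and DESeq2 called 32 of 45 and 5 of 11 higher. The difference between these groups of genes was not tested. The 5 were Hist2h2ac, Hist2h2be, Hist2h2bb (0.93 ± 0.19, adjusted p = 2.11e-05), Hist2h3b (1.09 ± 0.29, 0.00175) and Hist2h4 (0.73 ± 0.21, 0.0035). The remaining chromosome 3 genes tested were H2A genes, namely Hist2h2ab (0.43 ± 0.25, adjusted p = 0.224), Hist2h2aa1 (0.62 ± 0.32, 0.153) and Hist2h2aa2 (0.56 ± 0.36, 0.29). All 18 tested promoters of head-to-head pairs were higher, 16 of them by DESeq2, and since partners share fragments these are not 18 separate measurements.

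Counting sums rather than testing them gave a smaller set. In 11 of the 63 histone promoters with a fragment, every sum of clusters 9 and 5 lay above every sum of clusters 0 and 6 with 10 or more nuclei. The 5 nuclei of cluster 6 at E12.5, left out of this count, gave Hist1h2ad and Hist1h2bm a level above the lowest sum of cluster 9. The 11 were Hist1h1b, Hist1h2ad, Hist1h2ak, Hist1h2bb, Hist1h2bm, Hist1h2bn, Hist1h3b, Hist1h3c, Hist1h3f, Hist1h3i and Hist1h2ac. Of these, Hist1h3c and Hist1h2bb have overlapping windows, as do Hist1h2ak and Hist1h2bn, and such genes are not separate measurements. Among all 21149 promoters with a fragment the share was 0.908%. In 1 histone promoter, Hist3h2ba, every sum lay below, against 0.794% of all promoters.

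Taken alone, the progenitor-like cluster 9 showed fewer changes. In cluster 9 against clusters 0 and 6, 9 of the 56 histone promoters were higher and none was lower by edgeR's test, against 2.64% higher and 0.782% lower of all promoters tested. Without adjustment, 21 were higher and 1 lower at p under 0.05, and DESeq2 called 3 higher and 0 lower. Without the E13.5 library and without the E15.5 library edgeR called 0 of 54 and 0 of 59, with 12 and 15 higher before adjustment. The median log2 difference was 0.39, and 49 of the 56 lay above 0. The 9 were Hist1h1b, Hist2h2ac, Hist1h2ak, Hist1h2bb, Hist1h2bm, Hist1h2bn, Hist2h2be, Hist1h3b and Hist1h3c, with no H4 gene among them. Hist2h2ac had the largest difference, 1.53 ± 0.30 (adjusted p = 6.61e-05). Hist1h3c rose by 1.02 ± 0.26 (0.00507) and Hist1h2bb, an H2B gene, by 0.97 ± 0.25 (0.00825). Their windows overlap (23745502 to 23746602 and 23745734 to 23746834 on chromosome 13), so these are not separate measurements. The same holds for the partners Hist1h2ak and Hist1h2bn, and for Hist2h2ac and Hist2h2be. Hist1h3c had 5.94 to 9.05 CPM in cluster 0 and 11.5 to 22.9 in cluster 9, and Hist1h2bb had 7.04 to 8.23 in cluster 0 and 12.7 to 21.6 in cluster 9.

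In the erythroid-like cluster 5 nearly the whole set was higher. Against clusters 0 and 6, 53 of 56 promoters were higher and 1, Hist3h2ba, was lower, in a comparison where 18.4% of all tested promoters were higher and 21.4% lower. The median log2 difference was 1.35 over the histone promoters and 0.00 over all. When the E13.5 library was left out, 16 of 54 were higher. The counts were 5 of 5 for H1, 14 of 15 for H2A, 14 of 15 for H2B, 10 of 10 for H3 and 10 of 11 for H4. The largest difference was that of Hist1h1b (2.84 ± 0.37, adjusted p = 6.89e-13), followed by Hist2h2ac (2.38 ± 0.27, 1.14e-16) and Hist1h3b (2.21 ± 0.28, 3.3e-13). As said above, Hist1h1b can have passed the filter through the clusters where it is high. Hist1h3g rose by 1.78 ± 0.23 in cluster 5 (4.97e-13) and had 0.21 ± 0.28 in cluster 9 (0.809). Hist2h2aa2 and Hist4h4 did not pass the threshold, with 0.57 ± 0.43 (0.294) and 0.52 ± 0.27 (0.115).

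Clusters 9 and 5 were also compared directly. No histone promoter was higher in cluster 9 and 39 of 56 were lower, against 18.7% of all tested promoters higher and 13.4% lower. Without adjustment, p was under 0.05 for 46 promoters, all of them lower, and DESeq2 called 0 higher and 12 lower. Without the E13.5 library edgeR called 0 of 54 lower, with 4 lower before adjustment, and without the E15.5 library 8 of 59. The median difference was −0.86, and it lay above 0 for Hist3h2ba and Hist1h4j alone. Hist1h3g had the largest gap, with −1.57 on the log2 scale.

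Gene bodies gave a like picture with fewer calls. Over the bodies, from annotated start to annotated end, 58 of 67 histone genes were tested among 17836 genes, and 33 were higher and none lower in clusters 9 and 5 than in 0 and 6. Of all gene bodies tested, 4.64% were higher and 6.51% lower. The unadjusted p was under 0.05 for 47 bodies, all higher, and DESeq2 called 35 higher and 0 lower. Without the E13.5 library edgeR called 0 of 49 bodies, with 22 higher before adjustment, and without the E15.5 library 3 of 58. The median log2 difference was 1.33 over histone bodies and −0.01 over all bodies. Hist1h1b had the largest, 2.42 ± 0.37 (adjusted p = 0.000229), and Hist3h2ba alone lay below 0, with −0.36 ± 0.42 (0.653). The body of Hist1h1b was also low in the neuron-like sums, and it can have passed the filter through clusters 9 and 5. The bodies are short, with a median length of 539 bp, and the promoter window includes their first 100 bp, so bodies and promoters share fragments.

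**Figure D3:**
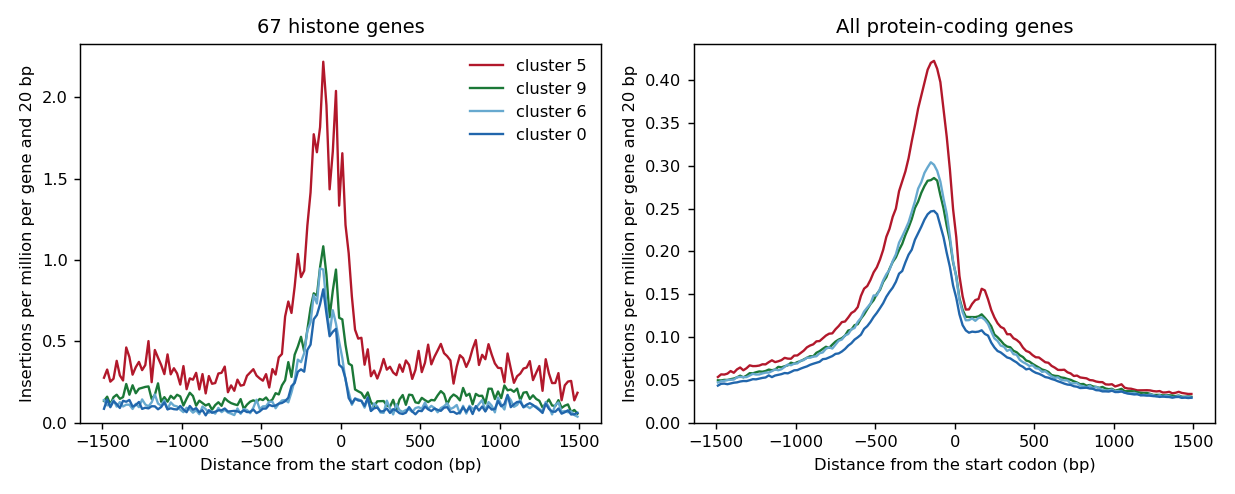
Tn5 insertions per 1000000 fragments, per gene and 20 bp step (vertical axis, with different scales), by distance from the start codon in bp (horizontal axis, negative upstream), for the histone genes (left) and all protein-coding genes (right) in clusters 0, 6, 9 and 5. The histone profiles peak 110 to 130 bp before the start codon and are highest in cluster 5.

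The peak of the signal stood at nearly the same place within the genes in the 4 clusters, but the spread around it differed. Insertions, the fragment ends where the transposase cut, were counted in steps of 20 bp around the start codon. Each value is the mean over 3 libraries, which for cluster 6 includes the 5 nuclei at E12.5. The histone profile peaked 110 bp upstream of the start codon in clusters 0, 9 and 5 and 130 bp upstream in cluster 6. The peak held 0.820 insertions per 1000000 fragments and gene in cluster 0, 0.948 in cluster 6, 1.08 in cluster 9 and 2.22 in cluster 5. All protein-coding genes peaked at 0.247, 0.304, 0.286 and 0.422. More than 1000 bp upstream the histone profile averaged 0.105, 0.114, 0.174 and 0.338 in the same order. The flank was therefore also higher in cluster 5, where all genes had 0.0664 against 0.0514 in cluster 0. The flanks of some histone genes hold other genes of the set, so they are not a background like that of all genes. Of the histone insertions in the profile, the steps from −290 to −10 bp held 37.5% in cluster 0 and 39.8% in cluster 6. They held 32.8% in cluster 9 and 31.3% in cluster 5. Over all genes these shares were 26.3%, 27.85%, 26.6% and 30.5%, in the order of clusters 0, 6, 9 and 5.

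The main cluster on chromosome 13 was then divided into 444 bins of 5 kb. The 32 bins with a histone coding region covered 160 of 2220 kb and held 45.0% of the fragments of the interval. Their median level was 10.5 CPM in cluster 0, 11.1 in cluster 6, 18.9 in cluster 9 and 42.5 in cluster 5. In the test over 161531 bins of the genome, 25 of the 29 histone bins tested were higher in clusters 9 and 5 and none was lower, with a median log2 difference of 1.18. Of all bins tested, 1.4% were higher and 1.57% lower. All 29 had an unadjusted p under 0.05, and DESeq2 called 24 higher and 0 lower. The median over all tested bins was −0.13. Of the histone bins tested, 1 of 28 was higher without the E13.5 library and 1 of 30 without the E15.5 library.

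**Figure D4:**
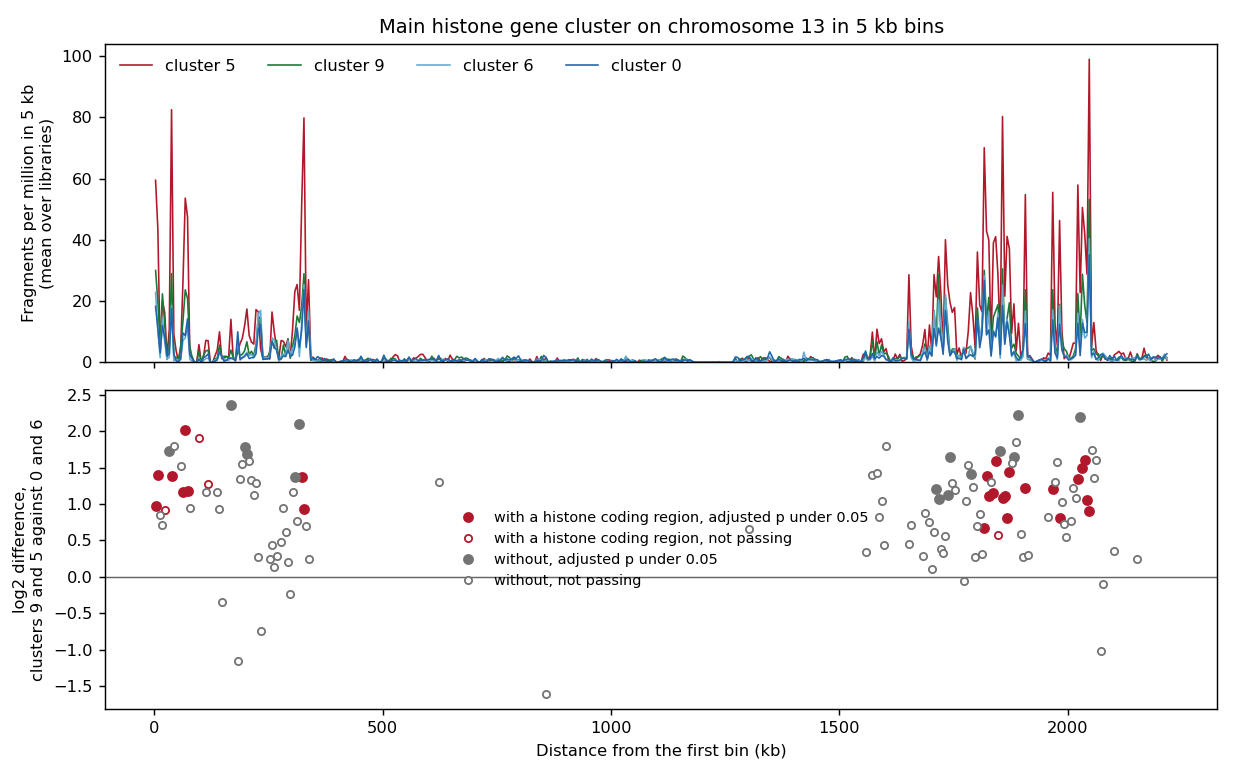
CPM in the 5 kb bins of the main histone cluster on chromosome 13, by distance from the first bin in kb (horizontal axis), in clusters 0, 6, 9 and 5 (top, mean over libraries), and the log2 difference of the tested bins between clusters 9 and 5 and clusters 0 and 6 (bottom), with bins that hold a histone coding region in red. The peaks stand at the histone blocks and are tallest in cluster 5, and the long stretch between the blocks is low in every cluster.

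Bins without a histone gene were mostly low, and few could be tested. Of 412 such bins 98 passed the filter. Of these, 15 were higher and none lower, against 1.4% higher and 1.57% lower of all bins tested. A low bin can pass this filter through the clusters where it is high, so these counts do not describe all 412. Over all 412 the median level was 0.869 CPM in cluster 0, 0.656 in cluster 6, 0.966 in cluster 9 and 0.921 in cluster 5, and over the 315 bins at least 10 bins away it was 0.739, 0.572, 0.789 and 0.674. Before adjustment, 51 were higher and 2 were lower at p under 0.05. Of the 89 bins over Vmn1r genes, which serve pheromone sensing in the nose, none passed the filter, and their median level was 0.434 to 0.689 CPM in the 4 clusters. Bins over other genes gave 1 higher of 21 tested, and bins without any protein-coding gene gave 14 of 77. Next to a histone bin 4 of 21 tested bins were higher, and 10 or more bins away 6 of 43. All these counts stand beside the 1.4% of all bins tested that were higher.

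**Figure D5:**
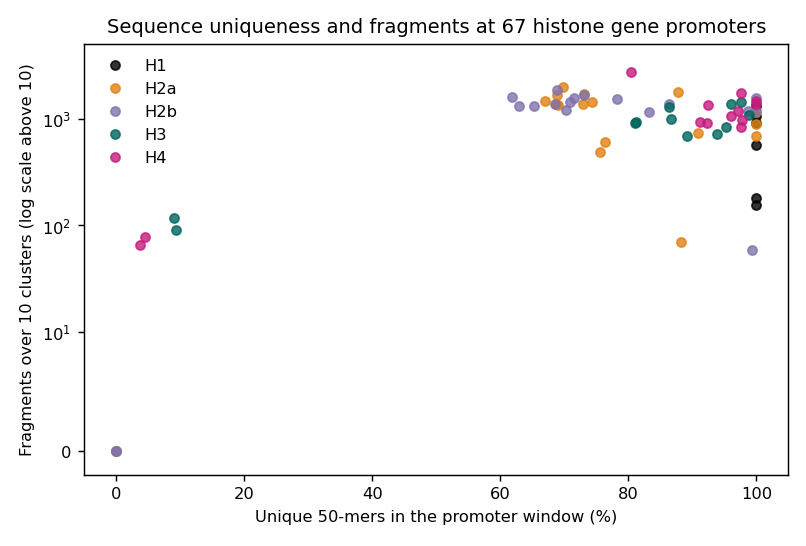
Share of 50-base windows that occur once in the genome (horizontal axis, percent) against the fragments at the promoter summed over the 10 clusters (vertical axis, log scale above 10), 1 point for each of the 67 histone promoters. The 8 promoters under 10% unique sit at the left of the plot, and 4 of them are at 0.

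Sequence copies limited what could be measured. Of all 50-base windows in the tested histone promoters, 61.8 to 100% occurred once in the genome, with a median of 88.5%. Hist1h2ao, Hist1h2ap, Hist1h2bq and Hist1h2br had no fragment at their promoter in any cluster, and 0% of their windows were unique. Another 4 promoters, those of Hist1h4m, Hist1h4n, Hist2h3c1 and Hist2h3c2, had under 10% unique windows and also failed the filter. For these 8 genes a low value does not measure a closed promoter. The other 3 untested genes, Hist1h1t and the pair Hist1h2aa and Hist1h2ba, are known from testis. Hist1h2aa and Hist1h2ba had mostly unique windows and at most 1.56 CPM in the 4 clusters. Gene bodies were less unique, with a median of 56.7%.

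Other genes of the pathway were read from lists that held no gene of the set. Of 10 tested promoters of histone transcription and mRNA processing genes, none passed the test in clusters 9 and 5 against clusters 0 and 6, with 2 at an unadjusted p under 0.05 and 0 by DESeq2. Slbp had a difference of 0.40 ± 0.17 (adjusted p = 0.0746) and Npat of −0.09 ± 0.15 (0.733). In cluster 5 alone Slbp (0.62 ± 0.20, 0.00675), Hinfp, an activator of H4 genes (0.58 ± 0.18, 0.00556), and Cpsf2, a subunit of the cleavage complex (0.73 ± 0.26, 0.0159), were higher by edgeR's test, which is 3 of 10 where 18.4% of all promoters were higher, and DESeq2 called 0 of the 10. Of 10 promoters of replication-independent histones, 2 were higher and 3 lower in clusters 9 and 5 against 0 and 6, beside 8.49% and 13.6% of all promoters, and DESeq2 called 0 higher and 3 lower. H2afx, the variant phosphorylated at DNA breaks, rose by 0.66 ± 0.16 in edgeR's test (0.00036), and H2afy2, a macroH2A gene, fell by 2.30 on the log2 scale (1.3e-08). H2afx was placed in this list although it carried the histone stem-loop site described above.

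Promoters of cell cycle genes were read in the same comparisons. Of 31 tested S phase promoters 6 were higher (4 by DESeq2), led by Uhrf1 (2.27 ± 0.29, adjusted p = 5.07e-13), which maintains DNA methylation, Rrm2 (0.99 ± 0.21, 4.97e-05), a subunit of the enzyme that makes deoxynucleotides, and the replication factor gene Gins1 (0.78 ± 0.19, 0.000376). Of 16 G2 and mitosis promoters 4 were higher (2 by DESeq2), among them Mki67, the gene of the proliferation antigen Ki-67 (1.09 ± 0.19, 2.2e-07). Both counts stand beside the 8.49% of all promoters that were higher. In cluster 9 alone, where 2.64% of all promoters were higher, the counts were 2 of 31 (1 by DESeq2) and 0 of 16, the latter with 1 promoter at an unadjusted p under 0.05 and 0 by DESeq2. In cluster 5 alone, where 18.4% of all were higher, they were 10 of 31 and 10 of 16 by edgeR and 5 and 4 by DESeq2. No promoter of these lists was lower in these comparisons. Of the neighbours inside the main cluster 5 promoters were tested, and Zfp184, a zinc finger gene, was lower (−0.81 ± 0.25, 0.00854).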

How the data were processed

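Fragment counts were made from the deposited fragment files, which per the labels the authors produced with Cell Ranger ATAC 2.0.0 on mm10, each line being 1 unique fragment of 1 barcode. The deposited nucleus table (1879 nuclei, made with Seurat 4.1.0 and Signac 1.6.0) gave the cluster of each nucleus, and its other 20 value columns were not used. Clusters 2 and 4 were left out by the rule that defined the set. No nucleus was removed as a doublet here, and no source read here gives a doublet step. Libraries shared 0, 0 and 1 nucleus barcodes. Barcodes of a library that shared at least 10% of their fragments were taken as linked, among them 8 of the 668 nuclei of clusters 0, 5, 6 and 9. Of the 10 nuclei of cluster 5 at E12.5, 2 were linked, and keeping 1 barcode per linked group left 9. The joint test of clusters 9 and 5 then called 45 histone promoters in either direction, as with all barcodes.

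Fragments were summed per cluster and library over promoters, gene bodies and 5 kb bins, and sums of at least 10 nuclei were tested with edgeR 4.0.16 in R 4.3.3 (quasi-likelihood test, TMM, filterByExpr, library as block, Benjamini-Hochberg over all tested features). Coefficients of clusters 9 and 5 were averaged, as were those of 0 and 6. All p-values named adjusted come from this test. It treats cluster sums of a library as separate samples. The block takes out the level of each library, and the spread left is that of cluster differences over 3 libraries that are also 3 stages. The test pools this spread over features. For promoters the p-values follow a normal curve, so the pooling was nearly complete. A promoter's own variation over the 3 libraries thus had little weight in its p-value. DESeq2 1.42.0, other scalings, filters, windows and left-out libraries were alternatives. The code was tested on simulated data first.

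Genes and lists were chosen with earlier results of these data known. Named are, per histone class, the promoters with the highest and lowest level, those with the smallest p in each direction, all H1 genes, all genes outside chromosome 13 and the testis genes, and up to 3 called genes per other list. Single genes named beyond this rule (Slbp, Npat, Hist1h4h, Hist1h4f and those that failed the filter or stood outside a count) were chosen after their values were seen.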

Additional observations from a re-analysis of the deposited data

Results flagged for a closer look

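In the test of the difference between the progenitor-like cluster 9 and the erythroid-like cluster 5, 39 of the 56 tested histone promoters were lower in cluster 9 (edgeR's quasi-likelihood test, Benjamini-Hochberg adjustment). Both clusters had been compared with the same neuron-like sums. The median log2 difference was 0.39 in cluster 9 and 1.35 in cluster 5, and −0.86 between them. DESeq2 called 12 lower. Without the E13.5 library, which gave 166 of the nuclei of cluster 5, no call was left, and 8 were left without the E15.5 library. In cluster 5 promoters of all genes took 10.5 to 17.8% of the fragments, against 8.32 to 12.2% in cluster 9, and the part of this in the difference was not tested.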

How the results depend on the processing

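Counts are of histone promoters, bodies or bins called in the direction of the report. Leaving out 1 library at a time gave 11 to 43 promoters for clusters 9 and 5 against 0 and 6, 0 to 9 for cluster 9, 16 to 52 for cluster 5, 0 to 44 for cluster 9 against cluster 5, 0 to 38 bodies and 1 to 24 bins. The lowest counts came without the E13.5 library, which held the most fragments, and for cluster 9 and the bins equally without the E15.5 library. For cluster 9, DESeq2 gave 3, the total of all fragments as the scale 14, insertions 2, and a window of 250 bp before to 50 bp after the start 3. DESeq2 gave 12 for cluster 9 against cluster 5, and insertions gave 18 bodies. By class, DESeq2 called 3 of 11 H4 promoters for clusters 9 and 5, against 7. The other counts over the whole set of promoters, bodies or bins stayed within 1.5 times those of the report, including a window at the start codon (43 promoters for both clusters) and the coding span as the body (24), which were both chosen after seeing the data. Without the replicate block, in which the library served as the replicate, the counts were 45, 9, 52, 38, 32 and 18 in the same order. Single promoters of clusters 9 and 5 against 0 and 6 kept their side of the threshold in 687 cases of promoter and setting, some of them with a change of sign in a promoter that was not called, lost the call in 78 and gained it in 12. The log2 difference of Hist1h4i, 0.70 with all libraries, changed sign to −0.087 without the E13.5 library and was 0.93 without the E15.5 library. The share of calls that were higher, over all features tested, was 77.2%, 88.2% and 91.5% for cluster 9 with edgeR, DESeq2 and the total as the scale, 46.3%, 29.1% and 69.2% for cluster 5, 58.3%, 79.5% and 41.6% for cluster 9 against cluster 5, 41.6%, 41.4% and 63.0% for bodies and 47.2%, 36.4% and 53.1% for bins. Depth limits the cluster 5 sums of 10 nuclei most, with 508143 fragments at E15.5, which gave the highest histone level, and 639989 at E12.5.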
